A study of Homo sapiens with 6 samples.

Results

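Oxidative phosphorylation subunits are the proteins of respiratory complexes I to IV and of the ATP synthase (complex V). They were chosen by gene symbol under a rule that used no measured value, although earlier results of these data were known. The rule took NADH dehydrogenase (NDUF), succinate dehydrogenase (SDH), UQCR and CYC1, COX4 to COX8 and ATP5. It also took the mitochondrially encoded MT-ND, MT-CO, MT-CYB and MT-ATP genes. A row of the expression table was kept when any of its symbols matched, and 22 rows that named only pseudogenes or antisense RNAs were dropped. This left 88 of 27918 rows with 90 member symbols, of which 39 belong to complex I, 4 to complex II, 10 to complex III, 18 to complex IV and 17 to complex V. The nucleus encodes 84 of them and the mitochondrial genome 4. In the table, 21 of these rows also carry other genes that the assembly joined to the member.

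Complexes I and II pass electrons from NADH and succinate to coenzyme Q, complex III passes them on to cytochrome c, and complex IV reduces oxygen. Complexes I, III and IV pump protons across the inner mitochondrial membrane, and complex V makes ATP from the gradient. Except for complex II, which is wholly nuclear, each complex joins subunits of the nuclear and the mitochondrial genome, so that its assembly depends on both.

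Poly(A) RNA was sequenced from HCT-116, an established cell line from a human colorectal carcinoma. Cells in 3 libraries had received a control GapmeR (GapNC) and cells in the other 3 a GapmeR against the long noncoding RNA CASC9 (GapC9). A GapmeR is an antisense oligonucleotide that leads RNase H to its target RNA. All 6 libraries come from transfected cells, and no untransfected cells were analysed here. The study's results and methods name different intervals between transfection and RNA extraction. The labels do not say that the replicates were separate cultures, so the p-values measure the spread between these libraries, which may be technical.

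CASC9, the targeted RNA, had FPKM values of 0, 0.0108 and 0 under the GapNC label and of 0.0528, 0.107 and 0 under the GapC9 label. It was not lower under its own GapmeR, and every direction below rests on the labels. Its mean, 0.0285 FPKM, lies below the filter of 0.1 FPKM used below, so these values cannot show whether it was knocked down. By RT-qPCR the study reported less CASC9 in HCT-116 cells given the CASC9 GapmeR. The cell line's label was checked with epithelial markers, of which EPCAM, an epithelial adhesion protein, stood between 62.3 and 88.4 FPKM. CDX1 and the differentiation markers VIL1 and LGALS4 were at most at 0.0528 FPKM. PTPRC, the pan-leukocyte marker, was at 0 in 5 libraries and at 0.00514 FPKM in the other, while CD68, a lysosomal protein fixed in the same immune list, stood between 49.8 and 55.8 FPKM. Taking the usual spacing of low values as 1 fragment, depth came to about 22.9 to 24.2 M (mega) fragments per library. GapNC replicate 1 stood apart by base composition. Over 10117 rows of at least 1 FPKM, its deviation from the row mean rose with GC content (Spearman's rho 0.616), whereas rho lay between −0.376 and 0.0287 in the other 5 libraries. Some of the calls and signs named below that turned on this library are given with and without it. Without it the sign of the fitted change turned in 13 of 85 tested members (15.3%), beside 11.2% of the 15812 rows tested in both fits. Among them were UQCRC1, ATP5A1, COX7A2, NDUFA6, MT-ND5 and MT-ND6, whose changes without it are not given below. Ratios of the assembly, carrier and regulator genes are given with all 6 libraries only.

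Most subunit rows stayed close to their control level. Of the 88 rows, 85 reached the minimum mean of 0.1 FPKM (FPKM counts fragments per kilobase of transcript, scaled to a fixed number of mapped fragments), and ATP5L2, COX4I2 and COX8C did not. In a limma fit to log2(FPKM + 0.1) over 16028 rows, 0 of the 85 rose at a Benjamini-Hochberg adjusted p under 0.05, where 1.89% of all rows tested were called higher. Under the same rule 2 of the 85 fell, COX7C and MT-ND2, where 5.1% of all rows were called lower. At an unadjusted p under 0.05, 5 members were higher (5.88%), beside 9.09% of all rows, and 4 were lower (4.71%), beside 16.8% of all rows. A second rule took the study's thresholds and applied them to mean FPKM and to limma's unadjusted p, with a change of at least 2-fold up, or down to 0.5 or less of the control, and p under 0.05. It called 0 members higher, beside 2.1% of all rows. It called 2 lower, MT-ND2 and COX6B2, beside 4.32% of all rows.

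The median log2 fold change (GapC9 minus GapNC) was 0.04 over the 85 members and −0.08 over all 16028 rows, and 47 members lay above 0 and 38 below. Scaling the libraries to a common median moved the median of all rows from −0.08 to 0.07 and that of the members to 0.19, with 64 members above 0. With quantile normalization the medians were 0.08 for the members and 0.00 for all rows. Under median scaling the calls at the adjusted p were 1 higher and 0 lower, beside 3.01% and 2.66% of all rows. Quantile normalization gave 1 higher and 1 lower, beside 2.16% and 3.22% of all rows. A correction for GC content gave 2 higher and 2 lower (2.35% each), beside 6.58% and 7.69% of all rows. At an unadjusted p under 0.05 in limma, 21 members (24.7%) were higher with median scaling, beside 15.9% of all rows. With quantile normalization 8 were (9.41%), beside 12.3%, and with the GC correction 17 (20%), beside 15.5%. Lower were 3 members (3.53%) under each of these settings, beside 11.2%, 13.4% and 14.9% of all rows. The fitted change was smaller than 0.5 on the log2 scale in 74 members (87.1%), as it was in 67.7% of all rows and in 70.7% of the rows with a mean of at least 1 FPKM. The 3 values of one group lay wholly above those of the other in 13 members with GapC9 higher (15.3%), beside 12.6% of all rows, and in 4 members with GapC9 lower (4.71%), beside 21.6% of all rows.

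**Figure D1:**
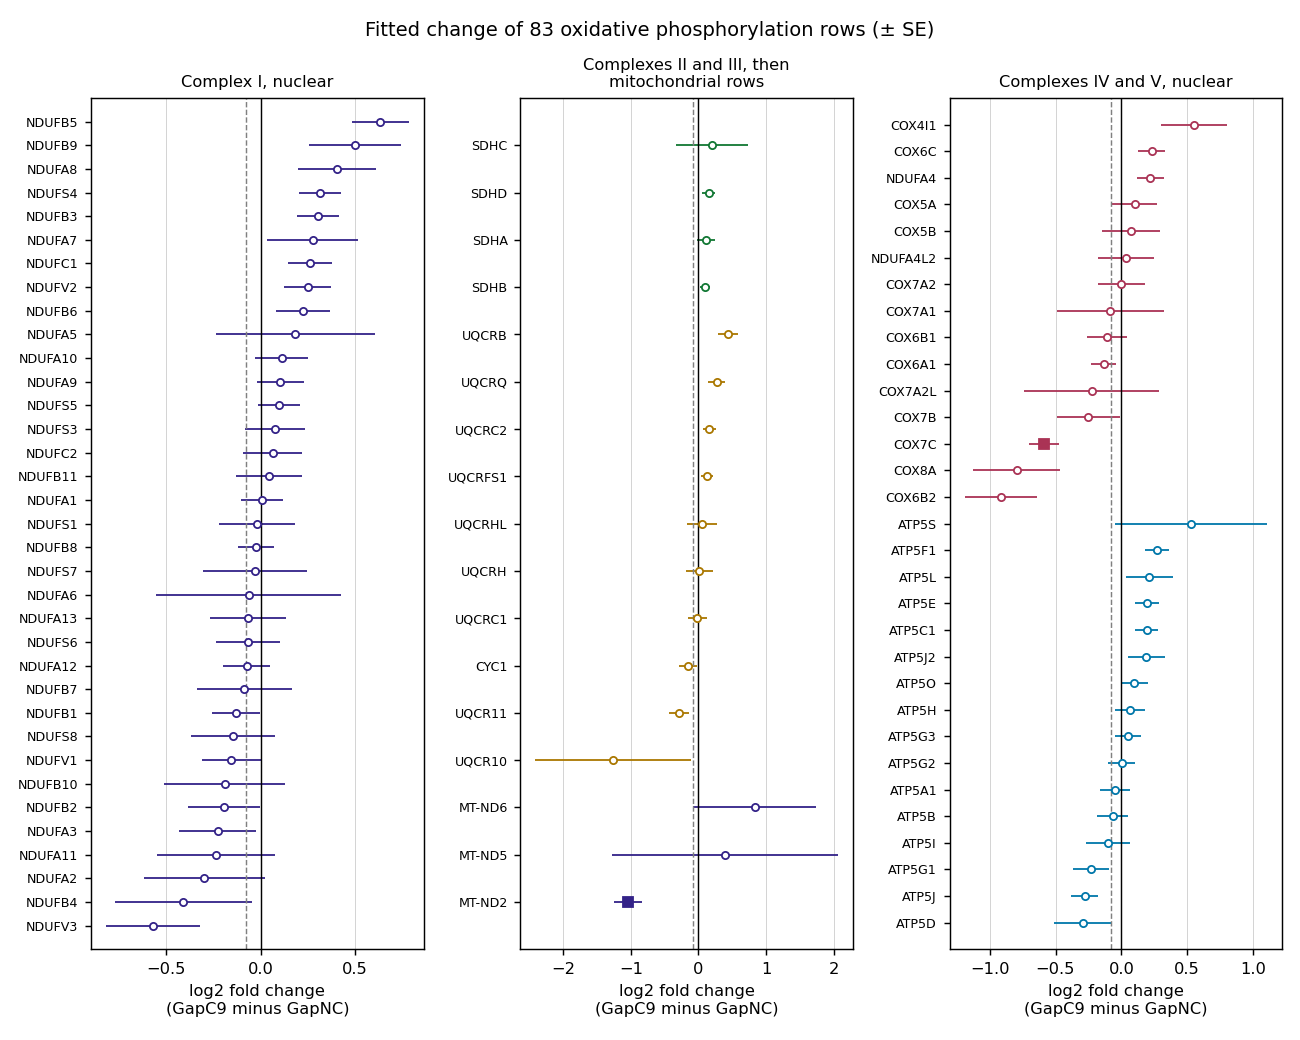
Fitted log2 fold change (GapC9 minus GapNC, x axis) ± SE for 83 subunit rows (y axis), grouped by complex and sorted by size, from 3 GapNC and 3 GapC9 libraries. Filled squares mark the 2 rows past an adjusted p of 0.05, COX7C at −0.59 and MT-ND2 at −1.04, and the dashed line marks the median of all rows tested at −0.08. MT-CO1, listed at 0 in every GapNC library, and 1 row not reported here are left out.

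Summed over all 84 nuclear rows, the FPKM values were 2290, 2081 and 2051 in GapNC and 2288, 2137 and 2081 in GapC9, replicates 1 to 3. The group means, 2141 ± 130 and 2168 ± 107 FPKM (SD, n = 3 each), differed by less than the spread within either group. By complex, the ratio of the mean sums (GapC9 over GapNC) was 1.05 for complex I, 1.07 for complex II, 0.968 for complex III, 0.989 for complex IV and 1.0 for complex V. Complex II was the only sum whose groups did not overlap, with 74.3, 77.3 and 77.8 FPKM in GapNC and 81.2, 81.8 and 82.1 FPKM in GapC9. In bulk libraries, fewer cells of a type and less RNA per cell cannot be told apart.

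**Figure D2:**
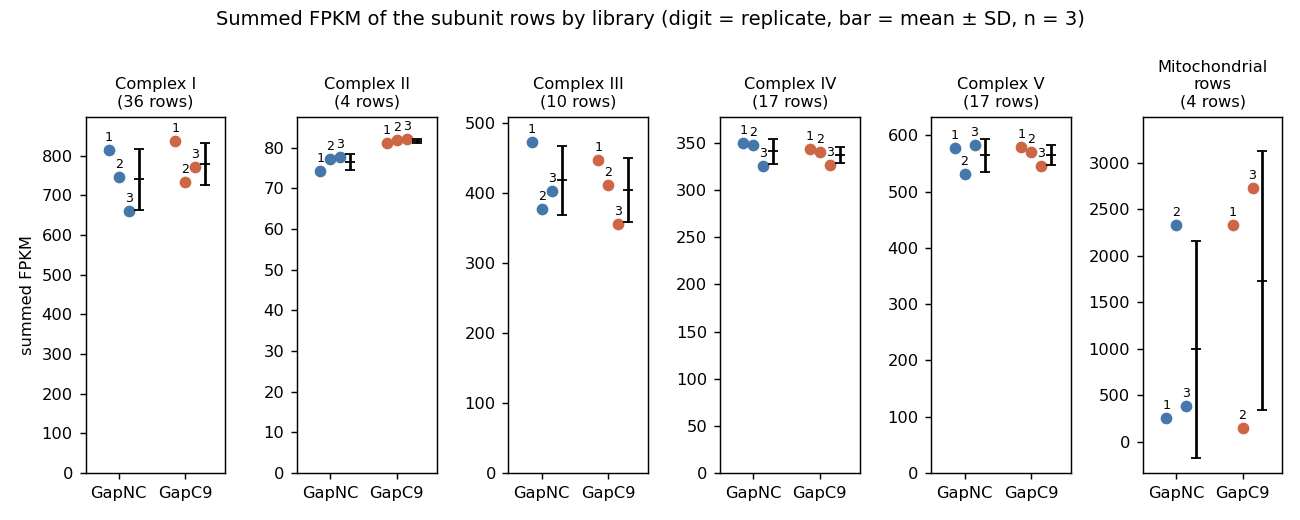
Summed FPKM (y axis) of the nuclear rows of each complex and of the mitochondrial rows in the 3 GapNC (blue) and 3 GapC9 (orange) libraries, with the mean ± SD beside the points. The nuclear sums overlap between groups except for complex II, and the mitochondrial sums range from 142 to 2726 FPKM with both groups at either end.

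Levels differed far more between subunits than between groups. The mean FPKM of the tested nuclear members ran from 0.132 for COX7A1 to 201 for ATP5B, and their median complex by complex was 11.1 FPKM for complex I, 12.9 for complex II, 29.8 for complex III, 24.0 for complex IV and 22.1 for complex V. The members as a set lay high in the table, with a median of 15.7 FPKM against 2.38 FPKM for all rows tested. Their annotated transcripts were short, with a median mean length of 946 bases against 1492 bases, and their median GC content, 50.0%, was close to the 50.2% of all rows.

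**Figure D3:**
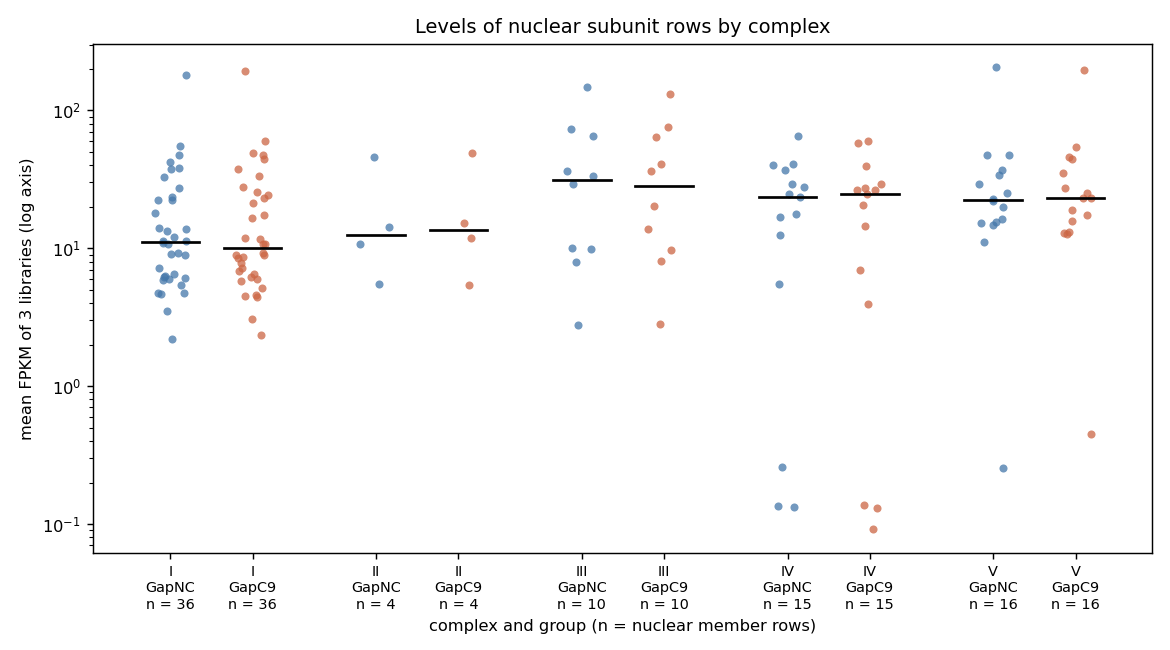
Mean FPKM of 3 libraries (log axis) for each tested nuclear row, by complex and group, with a bar at the median. The points of the groups overlap within each complex, and 3 complex IV rows and 1 complex V row lie below 1 FPKM.

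In complex I, 0 of the 36 nuclear rows passed the adjusted p. At an unadjusted p under 0.05, 3 were higher (8.33%), beside 9.09% of all rows, and 0 lower, beside 16.8% of all rows. The core subunits that carry the electrons from NADH to coenzyme Q moved little. NDUFV1, which binds NADH and its flavin, had 32.4, 26.6 and 22.7 FPKM in GapNC and 26.0, 24.9 and 21.8 FPKM in GapC9, so that the groups overlapped. NDUFS1, the largest iron-sulfur subunit, had 8.74, 7.29 and 11.6 FPKM against 9.23, 10.0 and 7.69 FPKM. NDUFS3, NDUFS7, NDUFS8 and NDUFV2 are further core subunits, iron-sulfur proteins or their scaffold, and the fitted changes of these 6 lay between −0.16 and 0.25 on the log2 scale, and between −0.04 and 0.27 without GapNC replicate 1, where NDUFS7 and NDUFS8 turned from −0.03 and −0.15 to 0.27 and 0.06. The row of NDUFV2 did not overlap between groups (5.81, 6.79 and 7.01 FPKM against 7.16, 7.70 and 8.48 FPKM), but it also carries ANKRD12, and its log2 fold change of 0.25 (SE 0.12) had an adjusted p of 0.267.

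Among the accessory subunits of complex I, which surround and stabilize the core, NDUFB5 had the largest positive change. It was named, like NDUFB3, NDUFS4, ATP5F1 and ATP5J below, after its values were seen. NDUFB5, a subunit of the membrane arm, had 5.16, 3.84 and 4.98 FPKM in GapNC and 7.23, 6.71 and 7.78 FPKM in GapC9. Every GapC9 library lay above every GapNC library, and the log2 fold change was 0.63 (SE 0.15, adjusted p = 0.0607). With only rows of at least 1 FPKM tested the adjusted p was 0.0452, and with median scaling it was 0.0424, whereas it was 0.128 with the GC correction and 0.0682 to 0.177 without single libraries. NDUFB3, also of the membrane arm, had 19.5, 24.1 and 23.8 FPKM against 27.7, 27.2 and 27.8 FPKM (log2 fold change 0.30, SE 0.11, adjusted p = 0.162). NDUFS4, an accessory subunit near the NADH end whose loss causes Leigh syndrome, had 13.9, 12.9 and 15.2 FPKM against 16.0, 18.8 and 17.4 FPKM (0.31, SE 0.11, adjusted p = 0.151). In both genes the groups were separate, and neither passed the adjusted threshold.

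The lowest change of a nuclear complex I row was that of NDUFV3, a small accessory subunit of the NADH module, at −0.57 (SE 0.25, adjusted p = 0.213). NDUFV3 had 4.13, 6.46 and 3.58 FPKM against 2.80, 2.77 and 3.65 FPKM, and the groups overlapped because GapNC replicate 3 lay below GapC9 replicate 3. The most abundant nuclear row of complex I was NDUFS5, an accessory subunit, at 182, 191 and 165 FPKM in GapNC and 209, 170 and 198 FPKM in GapC9. The least abundant was NDUFA9, an accessory subunit of the coenzyme Q module, at 2.0 to 2.53 FPKM, in a row that also carries DYRK4. In several rows, replicates of one group lay far apart. NDUFA6, which binds the acyl carrier protein, ranged from 10.2 to 32.2 FPKM within GapC9, and NDUFB4, of the membrane arm, had 9.47, 8.94 and 21.9 FPKM in GapNC.

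Complex II, succinate dehydrogenase, is at once an enzyme of the citric acid cycle. All 4 rows had a positive fitted change, between 0.09 and 0.20 on the log2 scale, and none passed a threshold. The positive sign of SDHC rested on 1 library. SDHB, its iron-sulfur subunit, showed the tightest replicates, with 45.9, 46.5 and 46.0 FPKM in GapNC and 48.8, 49.3 and 49.7 FPKM in GapC9. The groups were separate by a ratio of 1.07, and the moderated fit gave a log2 fold change of 0.09 (SE 0.07, adjusted p = 0.466). SDHA, the flavoprotein that oxidizes succinate, had 16.7, 12.8 and 13.0 FPKM against 15.9, 14.9 and 14.8 FPKM. Of the membrane anchors, SDHD had 9.90, 10.7 and 11.3 FPKM against 11.3, 12.1 and 12.2 FPKM, in a row that also carries TEX12 and BCO2. The other anchor, SDHC, had 1.85 FPKM in GapNC replicate 1 and between 5.28 and 7.50 FPKM in the other 5 libraries, so that a single library sets its spread. Its log2 fold change of 0.20 became −0.44 (adjusted p = 0.0570) without that library, and its ratio of means with all libraries was 0.977.

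Complex III held 1 row of 10 that was higher at an unadjusted p under 0.05 (10%), beside 9.09% of all rows. It held 0 that were lower, beside 16.8% of all rows. UQCRB, which binds coenzyme Q in the complex, had 8.93, 10.5 and 10.7 FPKM in GapNC and 11.5, 14.8 and 14.7 FPKM in GapC9. The groups did not overlap, and the log2 fold change was 0.44 (SE 0.14, adjusted p = 0.127). CYC1, the cytochrome that hands electrons to cytochrome c, was the most abundant row of the complex, with 177, 136 and 134 FPKM against 144, 126 and 127 FPKM. Its groups overlapped (log2 fold change −0.16, adjusted p = 0.501), and its highest value was in GapNC replicate 1, with a GC content of 61.8% in its transcripts. Without that library the change of CYC1 was −0.03, and with the GC correction it was 0.13, with the opposite sign. UQCRFS1, the Rieske iron-sulfur protein, had 35.9, 31.6 and 32.5 FPKM against 38.4, 35.4 and 35.4 FPKM (0.13, adjusted p = 0.438).

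The matrix-facing core proteins of complex III were also near their control values. UQCRC1 ranged from 57.5 to 78.5 FPKM over the 6 libraries, with a log2 fold change of −0.02, and UQCRC2 from 35.7 to 42.6 FPKM, with a log2 fold change of 0.16. UQCR10, a small accessory subunit, had the most uneven replicates of any nuclear member, with 39.9, 14.7 and 33.0 FPKM in GapNC and 19.2, 39.3 and 1.75 FPKM in GapC9. Its fitted change of −1.26 had an SE of 1.15 and an adjusted p of 0.529. UQCRH, the hinge protein, had 58.6 to 98.1 FPKM. UQCRHL, its intronless copy, had 1.99 to 3.50 FPKM, and since the copies are nearly identical in sequence their reads may have been divided between these rows.

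Complex IV held the nuclear subunit that fell. COX7C, a small nuclear subunit of cytochrome c oxidase, had 44.7, 38.7 and 37.0 FPKM in GapNC and 24.4, 28.9 and 26.5 FPKM in GapC9, with every GapC9 library below every GapNC library. The means were 40.1 ± 4.02 and 26.6 ± 2.24 FPKM (SD, n = 3 each). The ratio was 0.663, above the fold limit of 0.5, and the limma log2 fold change was −0.59 (SE 0.12, adjusted p = 0.0419). Leaving out any of the 6 libraries raised the adjusted p, to 0.0600 without GapNC replicate 1 and to at most 0.134 without GapC9 replicate 3. The log2 fold change stayed between −0.65 and −0.51 in those fits. Over all rows, at most 0.219% were called higher and 0.437% lower without any library other than GapNC replicate 1. The row of COX7C carries no other gene, and its transcripts have a GC content of 42.0%.

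The promoter of COX7C is shown because it is the 1 nuclear member that passed the adjusted threshold, beside that of COX5B, a complex IV subunit that did not and that was picked after its sequence was seen. The stretches are from the RefSeq promoter table (GRCh38.p14), written 5′ to 3′ on the gene's strand and cut to bases that no annotated exon covers. COX7C lies at chr5:86617691-86617903 on the plus strand, ending 37 bases before the RefSeq start. COX5B lies at chr2:97645812-97646039 on the plus strand, ending 22 bases before its start. Capitals mark ACTACANTTCCCA in COX7C, a motif chosen after its promoter was seen, and CCGGAAG, the core of binding sites of ETS factors such as GABPA, in COX5B.
COX7C: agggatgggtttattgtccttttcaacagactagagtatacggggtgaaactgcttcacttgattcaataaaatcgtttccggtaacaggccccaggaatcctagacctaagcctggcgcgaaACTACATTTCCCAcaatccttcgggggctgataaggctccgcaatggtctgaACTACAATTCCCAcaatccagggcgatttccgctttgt
COX5B: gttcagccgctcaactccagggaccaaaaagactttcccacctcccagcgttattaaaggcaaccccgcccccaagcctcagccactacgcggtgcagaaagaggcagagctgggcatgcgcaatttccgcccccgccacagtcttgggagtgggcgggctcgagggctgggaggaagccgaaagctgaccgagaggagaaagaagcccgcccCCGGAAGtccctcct

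COX5B, which sits on the matrix side of cytochrome c oxidase and binds zinc, had 26.1, 26.3 and 17.7 FPKM in GapNC and 20.6, 30.5 and 22.6 FPKM in GapC9, with overlapping groups and a log2 fold change of 0.07 (SE 0.22, adjusted p = 0.868). The COX7C stretch holds 2 copies of the 13-base motif on the plus strand. Of the 66 member rows that matched a RefSeq promoter of 300 bases, 13 did so through a newer symbol. COX7C and COX7B held this motif on either strand (3.03%), as did 0.714% of all 27305 promoters. COX7C held it by the choice of the motif, so these shares cannot be compared. COX7B, another small subunit, had a log2 fold change of −0.25 (SE 0.24, adjusted p = 0.546).

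Motifs of known regulators of respiratory genes were searched on both strands of the same promoters. CCGGAAG was found in 19 of the 66 members (28.8%) and in 10.6% of all promoters. The NRF1 motif, searched as GCGCANGCGC, was found in 16 members (24.2%) and in 6.05% of all promoters, and the YY1 motif, AAGATGGC, in 12 members (18.2%) and in 3.0% of all promoters. ETS and YY1 matches shared bases in 0 of these members. The median log2 fold change was 0.01 in the 19 tested members with CCGGAAG, 10 of them above 0, and −0.01 in the 46 without it, 22 of them above 0. With the NRF1 motif it was −0.02 in 15 tested members and without it 0.00 in 50. With the YY1 motif it was 0.04 in 12 and without it 0.00 in 53. A match is a run of letters in this window and not a measured site.

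Several subunits of complex IV come in forms made by different genes, and the common forms were far above the tissue-restricted ones. COX4I1, the common form of the largest nuclear subunit, had 26.7, 52.4 and 43.0 FPKM in GapNC and 60.8, 53.5 and 58.6 FPKM in GapC9. The groups did not overlap, although GapNC replicate 2 lay just under GapC9 replicate 2, and the log2 fold change was 0.55 (SE 0.25, adjusted p = 0.226). Without GapNC replicate 1, the lowest library, it was 0.28 (adjusted p = 0.236). COX4I2, the form linked to lung and low oxygen, was at most at 0.0915 FPKM. COX6B1 had 79.7, 57.0 and 57.8 FPKM against 60.9, 62.4 and 55.2 FPKM, with a log2 fold change of −0.11 that turned to 0.05 without GapNC replicate 1 and to 0.07 with the GC correction. COX6B2, its testis form, had 0.312, 0.282 and 0.184 FPKM in GapNC and 0.0707, 0.141 and 0.0629 FPKM in GapC9. All GapC9 values of COX6B2 were lower, and the ratio of means was 0.352 with an unadjusted p of 0.0159 and an adjusted p of 0.105. This call lies near the filter, at a fraction of 1 FPKM, and its log2 fold change ran from −0.21 with a pseudocount of 1 to −1.46 with a pseudocount of 0.01. Without GapNC replicate 1, GapNC replicate 2 or GapC9 replicate 3 it was not called, at unadjusted p-values of 0.0510, 0.0516 and 0.0501.

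COX7A2 had 30.3, 21.1 and 32.0 FPKM against 25.3, 28.8 and 28.1 FPKM, with a log2 fold change of 0.00, while COX7A1, the heart and skeletal muscle form, stayed between 0.0589 and 0.254 FPKM. COX7A2L, which helps to join complexes into supercomplexes, had 10.7 FPKM in GapNC replicate 3 and 2.80 to 4.61 FPKM in the other 5 libraries. COX8A, a small subunit in a row that also carries OTUB1, had 8.97, 18.3 and 9.93 FPKM against 9.22, 5.98 and 5.58 FPKM (log2 fold change −0.79, SE 0.33, adjusted p = 0.196). GapNC replicate 2 was far above the rest in COX8A, and GapC9 replicate 1 overlapped the GapNC values. COX8A was called lower by ratio and unadjusted p without GapNC replicate 1 (ratio 0.490) and without GapC9 replicate 1 (ratio 0.466), and its ratio was 0.733 without GapNC replicate 2. COX8C, a testis form, was at most at 0.160 FPKM and below the filter in its mean. NDUFA4, once counted with complex I and now placed in complex IV, had 19.1, 17.4 and 16.8 FPKM against 21.5, 21.6 and 19.1 FPKM (0.22, adjusted p = 0.240). NDUFA4L2, its hypoxia-induced relative, stayed at 0.107 to 0.152 FPKM. COX6A1, in a row with GATC, was at most at 30.1 FPKM.

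**Figure D4:**
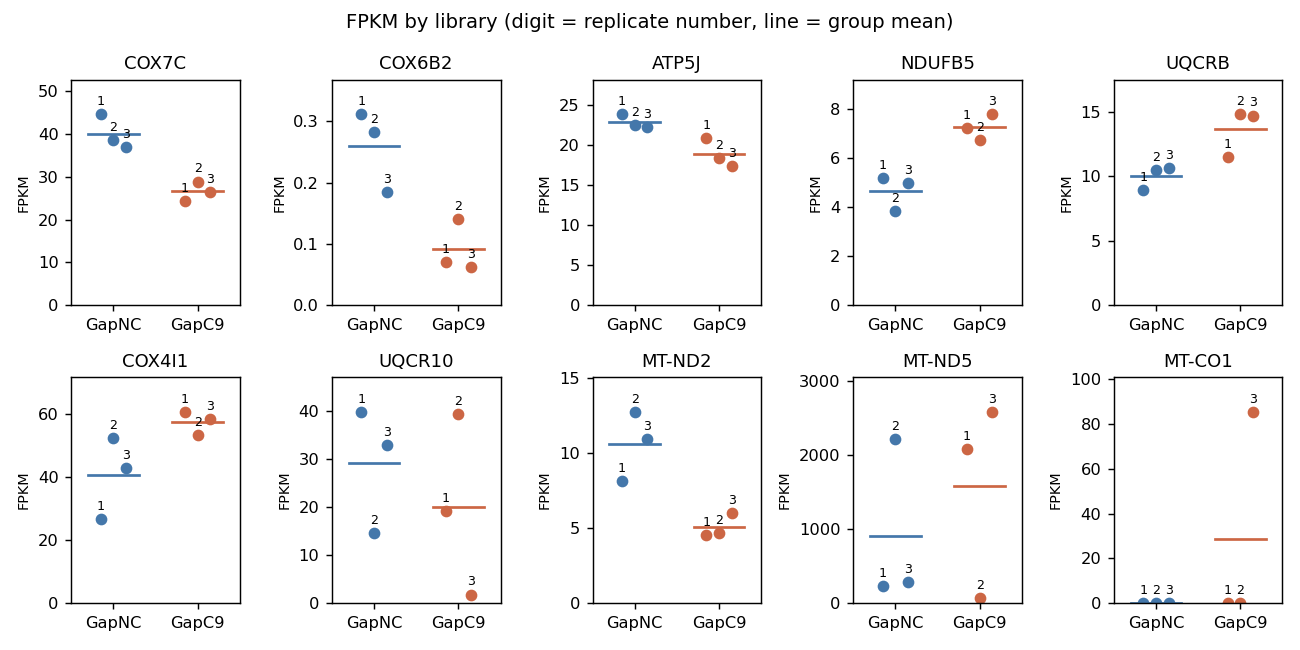
FPKM (y axis, from 0) of 10 members in the 3 GapNC (blue) and 3 GapC9 (orange) libraries, with the replicate number above each point and a line at the group mean. The groups are apart in COX7C, COX6B2, ATP5J, NDUFB5, UQCRB, COX4I1 and MT-ND2, while UQCR10 runs from 1.75 to 39.9 FPKM, MT-ND5 from 60.1 to 2582 FPKM, and MT-CO1 is above 0 only in GapC9 replicate 3.

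In complex V, 0 of 16 tested rows passed the adjusted p. At an unadjusted p under 0.05, 1 was higher and 1 lower (6.25% each), beside 9.09% and 16.8% of all rows. ATP5B, the catalytic beta subunit, was the most abundant nuclear member, with 209, 177 and 232 FPKM in GapNC and 203, 199 and 186 FPKM in GapC9, and its groups overlapped (log2 fold change −0.06, adjusted p = 0.772). ATP5A1, the alpha subunit, ranged from 41.7 to 51.3 FPKM with a change of −0.05. ATP5C1, the gamma subunit of the rotor, had 44.5, 51.4 and 46.2 FPKM against 53.9, 54.8 and 53.2 FPKM, without overlap (0.19, SE 0.09, adjusted p = 0.238). ATP5F1, the b subunit of the stator stalk, had 33.6, 39.3 and 37.5 FPKM against 43.3, 44.0 and 45.6 FPKM, also without overlap (0.27, SE 0.09, adjusted p = 0.142). ATP5J, another protein of the stator stalk, went the other way, with 23.9, 22.5 and 22.3 FPKM against 20.9, 18.4 and 17.4 FPKM (−0.28, SE 0.10, adjusted p = 0.164).

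Subunit c, the membrane ring, is made by ATP5G1, ATP5G2 and ATP5G3, which encode the same mature protein. ATP5G1 had 18.3, 14.8 and 13.2 FPKM against 12.8, 13.0 and 13.3 FPKM, ATP5G2 ranged from 23.7 to 28.0 FPKM and ATP5G3 from 31.1 to 36.6 FPKM. Their log2 fold changes were −0.23, 0.00 and 0.05, and the adjusted p-values were 0.348, 0.997 and 0.802. ATP5D, the delta subunit of the rotor, had the lowest change of the complex (−0.29, SE 0.22, adjusted p = 0.446) and the highest GC content of the members, 66.8%. With the GC correction its change was 0.08. ATP5S, named coupling factor B, was the least abundant tested row of the complex, with 0.123, 0.177 and 0.469 FPKM against 0.218, 0.904 and 0.231 FPKM. ATP5L2, a copy of ATP5L, was listed at 0 in 3 libraries and at most at 0.110 FPKM in the others.

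Of the 4 mitochondrially encoded rows, that listed as MT-ND2 fell and the other 3 had libraries of one group far apart. No row of the expression table named any other mitochondrial protein gene. MT-ND2, a proton-pumping subunit of complex I, had 8.09, 12.7 and 10.9 FPKM in GapNC and 4.50, 4.65 and 6.01 FPKM in GapC9. All GapC9 values were lower. The ratio of means was 0.478 and the log2 fold change −1.04 (SE 0.21, adjusted p = 0.0432), so MT-ND2 passed both thresholds. Without GapNC replicate 1 the adjusted p was 0.0354, and without any other library it was between 0.0987 and 0.144, at log2 fold changes between −1.17 and −0.89. Without GapNC replicate 2 or GapC9 replicate 1 its ratio was no longer under 0.5. Median scaling and quantile normalization gave adjusted p-values of 0.0668 and 0.0677.

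The MT-ND2 row was almost a copy of another row. That of MT-RNR2, the large mitochondrial ribosomal RNA, had 8.17, 12.8 and 11.0 FPKM against 4.53, 4.67 and 6.05 FPKM (adjusted p = 0.0426), and it exceeded the MT-ND2 row by a factor of 1.005 to 1.010 in every library. Whether both rows hold the same reads could not be settled from the values, so the fall may not be that of MT-ND2 itself. MT-ND5, another pumping subunit of complex I, sat in a row with 3 assembled transcripts and 0 Ensembl transcripts. It had 232, 2214 and 277 FPKM in GapNC and 2082, 60.1 and 2582 FPKM in GapC9, so that both groups held high and low libraries (adjusted p = 0.909). MT-CO1, the catalytic subunit of complex IV, was listed at 0 in 5 libraries and at 85.5 FPKM in GapC9 replicate 3. MT-ND6 shared its row with MT-RNR2 and mitochondrial tRNA genes, 6 symbols in all, at 16.5, 109 and 98.7 FPKM against 248, 76.9 and 52.5 FPKM (adjusted p = 0.606). Together the 4 rows took 0.154%, 1.47% and 0.253% of the summed FPKM in GapNC and 1.46%, 0.0921% and 1.76% in GapC9. The 84 nuclear rows took 1.31% to 1.43% in every library.

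Base composition moved with the fitted changes of the members. Over the 84 tested rows with annotated transcripts, Spearman's rho between GC content and log2 fold change was −0.394, beside −0.250 over 15909 rows of the whole table. These points share the same 6 libraries and are not independent. The members' deviations from their row means followed GC content with rho of 0.564, 0.261 and −0.356 in GapNC, replicates 1 to 3. In GapC9 rho was 0.103, −0.277 and −0.391, so that both groups held rising and falling libraries. GapNC replicate 1 was the highest library in 28 of the 81 tested nuclear rows (34.6%), and in 31.2% of all rows. The 40 nuclear rows of lower GC content had a median log2 fold change of 0.11, with 28 above 0, and the 41 rows of higher GC content, from 50.2% upward, had a median of −0.07, with 16 above 0. Without GapNC replicate 1 these medians were 0.12 and 0.05, and with the GC correction 0.13 and 0.16, so the sign among the rows of higher GC content turned on this library. Its part in the other results was not tested beyond the fits without it.

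**Figure D5:**
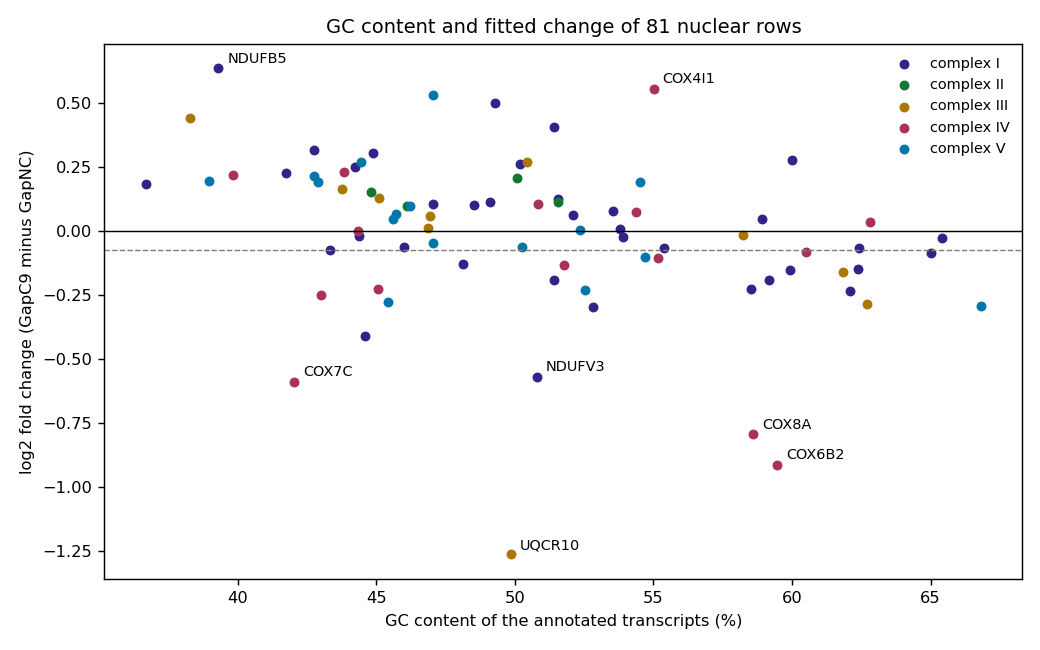
GC content of the annotated transcripts (x axis, %) and fitted log2 fold change (y axis) of 81 tested nuclear rows, colored by complex, with the median of all rows as a dashed line at −0.08. Of the 41 rows from 50.2% GC upward 16 lie above 0, and of the 40 rows below that 28 do. COX7C lies at 42.0% and −0.59.

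Subunits need dedicated factors to be assembled and electron carriers to work. For these, 109 gene symbols in 8 lists, chosen with earlier results of these data known, gave 106 tested rows. Some list rows also carry other genes, and that of PTCD1 is the member row of ATP5J2. Of the 106 rows, 2 rose and 5 fell at the adjusted p (6.60%), beside 1.89% higher and 5.1% lower in the whole table. Their median log2 fold change was 0.02. With the GC correction the counts were 10 and 9, beside 6.58% and 7.69% of all rows, and with median scaling 6 and 3, beside 3.01% and 2.66%. In complex I assembly, 3 of 17 fell. TIMMDC1, which helps to build the membrane arm, had 12.9, 13.0 and 12.3 FPKM in GapNC and 7.83, 6.98 and 7.33 FPKM in GapC9, wide apart relative to the replicates (log2 fold change −0.78, SE 0.10, adjusted p = 0.0182). NDUFAF3, an early assembly factor, had 13.5, 7.42 and 8.09 FPKM against 4.24, 4.02 and 3.92 FPKM (−1.18, SE 0.24, adjusted p = 0.0433). DMAC1, of the distal membrane arm, had 3.56, 2.88 and 2.82 FPKM against 1.3, 1.32 and 1.55 FPKM (−1.10, SE 0.15, adjusted p = 0.0211). NDUFAF8 and FOXRED1, also assembly factors of complex I, were called lower only by the ratio and unadjusted p, at ratios of 0.379 and 0.491.

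In complex IV assembly, COX20, the chaperone of the mitochondrially made subunit that takes up electrons, rose from 6.36, 8.15 and 8.43 FPKM to 12.9, 14.5 and 14.5 FPKM (log2 fold change 0.87, SE 0.14, adjusted p = 0.0303), as 1 of 22. COX14, in a row with another locus, was called lower by the ratio rule, at 5.96, 4.05 and 0.895 FPKM against 0.217, 0.277 and 1.03 FPKM, and its groups overlapped. Of the 3 rows for complex II assembly, 6 for complex III and 4 for complex V, 0 passed the adjusted p in limma. At an unadjusted p under 0.05, 2, 0 and 1 of them were higher and 0, 1 and 0 lower, beside 9.09% and 16.8% of all rows. Among 14 carrier and supercomplex genes COQ8A, a kinase-like protein of coenzyme Q synthesis, fell from 4.63, 3.90 and 3.74 FPKM to 2.14, 1.64 and 1.57 FPKM (−1.16, SE 0.16, adjusted p = 0.0239). CYCS, cytochrome c itself, had 48.0, 52.9 and 55.0 FPKM against 50.8, 54.4 and 54.1 FPKM (0.03, adjusted p = 0.853).

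The 30 rows for mitochondrial gene expression had a median log2 fold change of 0.13, with 21 above 0 and 9 below. At an unadjusted p under 0.05 in limma, 6 were higher and 2 lower, beside 9.09% and 16.8% of all rows. At the adjusted p 0 rose and 1 fell. This was MTERF4, which acts on the mitochondrial ribosome, with 2.52, 2.0 and 2.32 FPKM against 1.54, 1.24 and 1.19 FPKM (−0.75, SE 0.16, adjusted p = 0.0475). TFAM, which packages mitochondrial DNA and starts its transcription, had 8.95, 4.96 and 5.57 FPKM against 7.12, 7.56 and 17.0 FPKM, with overlapping groups (adjusted p = 0.377). Among 10 tested nuclear regulators GABPA, the ETS factor known to bind respiratory gene promoters, rose from 5.10, 6.78 and 7.65 FPKM to 12.0, 14.6 and 13.6 FPKM. Its ratio was 2.06, with a log2 fold change of 1.04 (SE 0.18, adjusted p = 0.0314). Of the other factors searched for above, NRF1 had 6.76, 5.25 and 4.74 FPKM against 6.28, 6.01 and 5.86 FPKM (0.13, adjusted p = 0.637). YY1 had 10.91, 12.5 and 15.2 FPKM against 7.70, 10.87 and 6.27 FPKM, with GapC9 replicate 2 just under GapNC replicate 1 (−0.65, SE 0.23, adjusted p = 0.152). PPARGC1B, a coactivator of respiratory genes, had a ratio of 0.413 and an adjusted p of 0.0970. GABPB1, in the same list, had 1.81, 2.29 and 2.18 FPKM against 1.33, 1.39 and 1.75 FPKM, without overlap (−0.47, SE 0.16, adjusted p = 0.139). Of the 10 regulators, 1 was higher and 3 were lower at an unadjusted p under 0.05 in limma, beside 9.09% and 16.8% of all rows. GABPA lies head to head with ATP5J, and in GENCODE (GRCh38) their genes share 1104 bases on chromosome 21 on opposite strands. Whether the counting used strand is not given in the sources used here, so reads of the shared bases cannot be assigned to ATP5J or GABPA. Of the 7 genes called at the adjusted p, the 6 other than MTERF4 kept it without GapNC replicate 1, at 0.0270 (NDUFAF3) to 0.0428 (COQ8A). Without any other library they did not, at adjusted p-values of up to 0.139 (NDUFAF3), and MTERF4 lost its call without any library (0.0844 to 0.160). The whole table showed the same pattern. Without GapNC replicate 1, 1.51% of all rows were called higher and 3.58% lower, and without any other library at most 0.219% and 0.437%.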

How the data were processed

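Poly(A) RNA of 3 GapNC and 3 GapC9 libraries of HCT-116 cells was sequenced in read pairs. The authors mapped reads to the human genome with HISAT and deposited FPKM values computed by StringTie. The submitters' processing notes name Bowtie 0.12.2, HISAT2 2.0 and StringTie 1.3.0, and a mouse build that does not match the human gene names. FPKM is scaled for transcript length and sequencing depth. The table holds no counts, so the edgeR test of the study was not rerun and no counting error can be given. Strand use is not given in the sources used here. The deposited values were taken as they stand, with 0 sample columns left unused.

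In R 4.3.3, limma 3.58.1 (lmFit and eBayes with trend) was fitted to log2(FPKM + 0.1) of the 16028 rows whose mean reached 0.1 FPKM, in 1 fit of the 6 libraries with Benjamini-Hochberg adjustment over all rows. A fold change on this scale understates the change of low genes. A row was called at an adjusted p under 0.05, or by the study's thresholds on fold and p, here taken on mean FPKM and limma's unadjusted p. The script was tested on simulated data. GC content and length came from GENCODE v29 transcripts (GRCh38), and promoters from RefSeq tables (GRCh38.p14). Tables and figures were made in Python 3.11.15. For a gene, a letter of the motif written N stands for any base.

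The members, the lists of assembly factors, carriers and regulators, and the tests were chosen with earlier results of these data known. Named were all members past a threshold or encoded in mitochondria, the SDH genes, CYC1, UQCRFS1 and the nuclear core of complex I, the extremes of level and change in each complex, isoform sets, joined rows, list genes past a threshold, and CYCS, TFAM, NRF1 and GABPA. Joined rows and members not named in the text are given in counts. A member is not reported here. The alternatives were 2 other pseudocounts, 3 other filters, 4 other scalings, a GC correction (lowess, span 0.3), the fitted fold change, limma with robust variances or without trend, each library left out in turn, and a replicate block.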

Additional observations from a re-analysis of the deposited data

How the results depend on the processing

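The count of members past the adjusted p was 2 (0 higher, 2 lower). It was 0 without a filter, beside 0.523% higher and 1.24% lower of all rows, and 0 in limma without trend, beside 1.48% and 4.12%. With median scaling it was 1, with equal sums 1, and with equal sums computed without mitochondrial rows 1. With the GC correction it was 4. Leaving out a library gave 0 to 1. Without GapNC replicate 1, 1.51% of all rows were called higher and 3.58% lower. Without any other library, at most 0.219% of all rows were called higher and at most 0.437% lower. By ratio and unadjusted p the count was 2, against 1 with the filter at 1 FPKM, with median scaling, with quantile normalization and with the fitted fold change, and 0 to 2 without a library. Of the 106 list genes, 7 passed the adjusted p, against 4 without a filter, 19 with the GC correction and 0 to 7 without a library. By ratio and unadjusted p 8 did, 1 higher and 7 lower, beside 2.1% and 4.32% of all rows. It was 4 with the GC correction (0 higher, 4 lower) and 5 to 10 without a library. The shares of all rows called by ratio and unadjusted p in those alternatives are not given here. The median log2 fold change of the members, 0.04, was 0.190 with median scaling, 0.135 with the GC correction and 0.0232 to 0.0765 without a library. The mean share of the mitochondrial rows was 0.479 percentage points higher in GapC9, and 0.151 to 0.987 without a library. NDUFB5 passed the adjusted p with the filter at 1 FPKM, with median scaling and with quantile normalization, and ATP5F1 and NDUFB3 with the GC correction.

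A replicate block gave 0 members and 0 list genes past the adjusted p in limma, and 0 of all rows, while 9 members were higher (10.6%) and 4 lower (4.71%) at an unadjusted p under 0.05, beside 10.1% and 18.4% of all rows. The deviations from the group means of same-numbered libraries correlated at r = 0.097, 0.0398 and 0.0243, and of differently numbered ones at −0.093 to 0.0578. Not every library correlated best with its own number. Such small values cannot show whether the replicate number marks a batch. Over rows of at least 1 FPKM, rho with GC content fell from replicate 1 to 3 in both groups. It was 0.616, 0.00964 and −0.104 in GapNC and 0.0287, −0.336 and −0.376 in GapC9. Of 1039 refits of 55 single members, 958 stayed on their side of the threshold and within 1 SE of the main value, and 0 called values changed sign. The filters, the limma variants and the replicate block cannot move a fitted value, and most of these members were not called in the main fit. The count of 958 is therefore no measure of robustness. Without counts, rows near the filter, such as COX6B2, are the least precise.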
